A study of Arabidopsis thaliana with 12 samples.

Results

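Among the transcripts measured in rosette leaves of Arabidopsis thaliana, 55 probe sets had a higher signal in every one of 3 altered lines than in the wild type. A probe set is a group of short DNA probes on the array that together report 1 transcript or several close ones. A probe set was a member when the means of OE1, OE2 and fls1-3 were each at least 7 on the log2 scale, each lay at least 0.6 log2 units (1.52-fold) above the Col-0 mean, and all 9 line arrays lay above the highest Col-0 array. Array control probe sets and probe sets of plastid-encoded genes were left out, as were 4 genes, AT3G15630, AT3G15450, MGL and IRX15-L. Of the 22746 probe sets measured, 59 met the numeric criteria. One of these names the plastid gene petL, and 3 belong to the 4 genes left out. MGL would not have been a member in any case, since its lowest line array, 7.02, lay below its highest Col-0 array, 7.61. The 55 members are 0.243% of the 22669 probe sets that could enter. The mirror criterion, lower in all 3 lines, was met by 72 (0.318%). Plastid origin could be checked only for probe sets that name a gene.

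The study compared leaves of 6-week-old soil-grown plants kept at 22 °C, 60% humidity and days of 16 h. Col-0 is the wild-type accession. OE1 and OE2 are lines that overexpress TaFLS, a flavonol synthase gene, in a background and under a promoter that the labels do not state. The mutant fls1-3 is named for FLS1, the flavonol synthase gene of Arabidopsis. Each group had 3 arrays of samples titled as biological replicates. No source used here tells whether a sample was 1 plant or a pool, so errors and p-values measure the spread between arrays, which may be technical. The labels describe a lowered flavonol content for OE1 and a raised one for both OE2 and fls1-3, which conflict for lines of the same overexpression. A raised content also conflicts with the loss of a flavonol synthase, if that is what the name fls1-3 stands for. Groups were used as labelled. FLS1 is not named by any probe set in the annotation used here, so the label of the mutant was not checked.

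Flavonol synthase turns dihydroflavonols into flavonols, flavonoid pigments of leaves that absorb ultraviolet light and act as antioxidants. Leaf transcripts also follow the supply of sugars, light, time of day, touch, cold and wounding, and many small regulators, such as RING-type ubiquitin ligases, calmodulin-binding proteins and glutaredoxins, are known to be transcribed in response to such conditions. Signal in bulk leaf RNA does not separate a change in the number of cells of a type from a change in RNA per cell. Of 28 cell type markers in 7 lists, 6 are named by a probe set, and none of these 6 is a member. The other markers could not be looked for among members that name no gene. RCA, for rubisco activase of photosynthetic cells, marked the tissue as leaf with a Col-0 mean of 14.86 and differences of 0.14, -0.07 and -0.20 in OE1, OE2 and fls1-3. The root gene PYK10 had means of 8.24 in Col-0, 9.14 in OE1, 10.59 in OE2 and 7.08 in fls1-3, with an SD of 5.90 among the mutant arrays, and the root gene EXPA7 had means from 2.89 to 4.09. The guard cell lineage genes FAMA and SPCH had means from 6.20 to 6.62 and from 3.19 to 5.02. CLV3, of the shoot meristem, was dim, at 1.19 in Col-0 and 3.81, 2.21 and 2.54 in OE1, OE2 and fls1-3, so its means were higher in all 3 lines, and its part in the members' levels was not tested.

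The array annotation names a single gene for 20 of the 55 members, several genes for 2 and none for 33. The 20 stand for 19 genes, because AT2G30600 has 2 probe sets. Since the members were chosen by their difference from Col-0, these differences are given as a description without a test. Relative to Col-0, the members ranged from 0.62 to 2.46 log2 units higher in OE1 with a median of 0.83. They ranged from 0.61 to 3.95 higher in OE2 with a median of 1.42, and from 0.62 to 3.86 higher in fls1-3 with a median of 1.40. Over all 22746 probe sets, the same medians were 0.11, 0.08 and -0.004. At least 1 log2 unit above Col-0 were 19 members in OE1, 43 in OE2 and 42 in fls1-3, and 18 members in all 3 lines at once. The members were of moderate signal, with Col-0 means from 4.92 to 11.35 and a median of 7.49, and 18 of them lay below 7 in Col-0. No member had an array at 0.

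**Figure D1:**
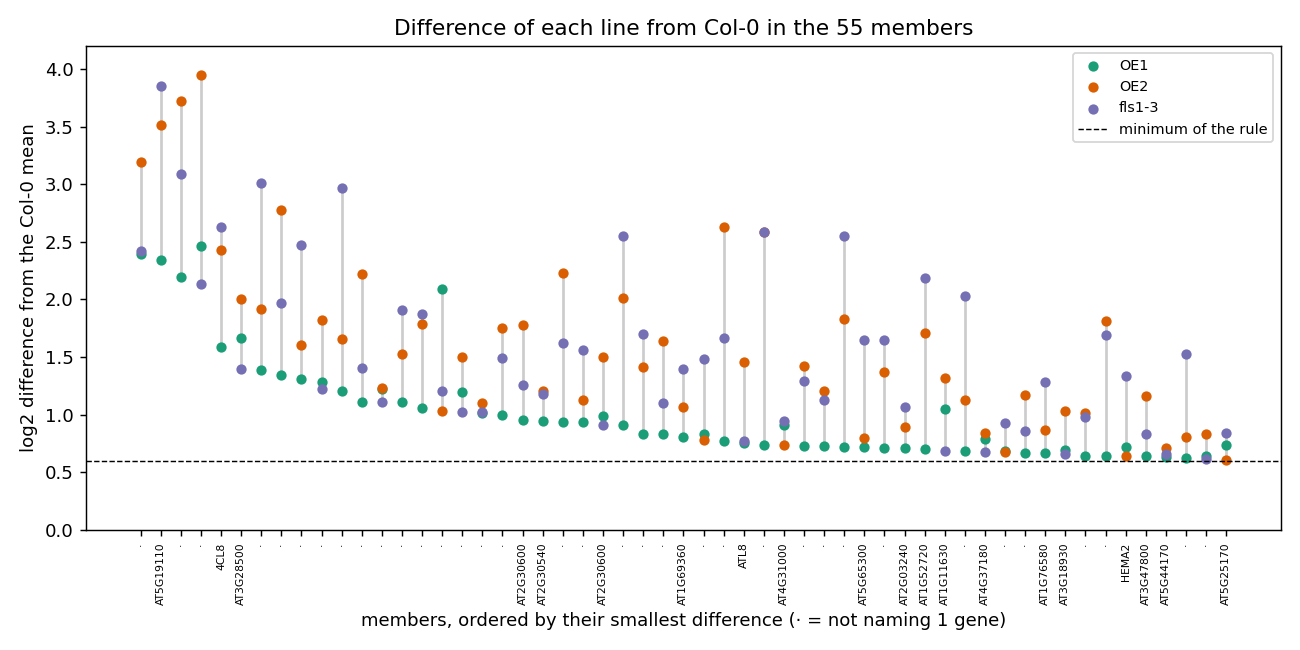
Log2 difference of each line mean from the Col-0 mean (vertical axis) for the 55 members, ordered by their smallest difference (horizontal axis, with symbols where 1 gene is named). Points are OE1, OE2 and fls1-3, grey bars join them, and the dashed line is the minimum of 0.6. OE1 is the lowest point in 39 members.

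Among the named members with a metabolic or redox role was 4CL8, an acyl-activating enzyme whose name marks its resemblance to the 4-coumarate ligases of phenylpropanoid metabolism. Its log2 signal was 4.97, 5.99 and 5.59 on the Col-0 arrays, 6.95, 7.45 and 6.92 in OE1, 7.91, 8.14 and 7.80 in OE2, and 8.70, 8.20 and 7.54 in fls1-3. The Col-0 arrays were low and the OE1 arrays lay between them and the other lines, with no overlap between OE1 and OE2 or between OE1 and fls1-3. The difference from Col-0 was 1.59 in OE1, 2.43 in OE2 and 2.63 in fls1-3. AT2G30540, for a glutaredoxin of the plant-specific CC type, stood at 6.18, 6.66 and 7.26 in Col-0, at 7.42, 7.76 and 7.75 in OE1, at 8.02, 7.84 and 7.84 in OE2, and at 7.44, 7.96 and 8.25 in fls1-3. Its lines differed little from one another, and its Col-0 arrays covered a wider range than OE1 or OE2. HEMA2, for a glutamyl-tRNA reductase of tetrapyrrole synthesis, was higher by 0.72, 0.64 and 1.34 in OE1, OE2 and fls1-3. AT3G47800, of the galactose mutarotase family, was higher by 0.64, 1.17 and 0.83 in the same order, and AT5G44170, of a methyltransferase family, by 0.63, 0.71 and 0.65.

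AT5G19110, of the aspartyl protease family, lay furthest above Col-0 among the named members when each is judged by its least different line. Its signal was 4.54, 5.14 and 5.07 in Col-0, 7.30, 6.84 and 7.66 in OE1, 9.25, 8.28 and 7.78 in OE2, and 10.32, 9.55 and 6.46 in fls1-3. The Col-0 arrays were dim and close together, while the 3 fls1-3 arrays spread over the whole range of the lines. OE1 exceeded Col-0 by 2.35, OE2 by 3.52 and fls1-3 by 3.86, where the mutant arrays had an SD of 2.05. Without fls1-3 replicate 3 the mutant's difference was 5.02. ATL8, a RING-H2 finger protein of the ATL family of ubiquitin ligases, stood at 7.03, 6.96 and 7.05 in Col-0, at 7.93, 7.59 and 7.79 in OE1, at 8.29, 8.32 and 8.80 in OE2, and at 7.88, 7.77 and 7.69 in fls1-3. Its Col-0 arrays lay within 0.1 of each other, OE1 and fls1-3 overlapped, and OE2 stood above both. AT3G18930, another RING finger gene of the same family, was higher by 0.69, 1.03 and 0.66 in OE1, OE2 and fls1-3. AT5G25170, of a family of putative thiol peptidases, was higher by 0.74, 0.61 and 0.84.

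AT2G30600, for a protein with a BTB/POZ domain, a fold found in adaptors of ubiquitin ligases, was reported by both of its probe sets. The brighter one gave 10.04, 9.75 and 10.18 in Col-0, 10.69, 11.29 and 10.95 in OE1, 11.56, 11.57 and 11.34 in OE2, and 10.68, 11.20 and 10.83 in fls1-3. Here OE2 was the highest line, and OE1 and fls1-3 overlapped. The differences from Col-0 were 0.99, 1.50 and 0.91. The dimmer probe set gave 0.95, 1.78 and 1.25, so both placed OE2 highest. These probe sets read the same RNA extracts and are not independent replicates.

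The regulators among the named members were AT4G31000, AT4G37180 and AT1G76580. AT4G31000, of the CBP60 family of calmodulin-binding proteins, stood at 6.48, 7.16 and 7.56 in Col-0, at 7.88, 7.85 and 8.20 in OE1, at 7.75, 7.91 and 7.75 in OE2, and at 7.90, 8.03 and 8.11 in fls1-3. The 3 lines were nearly level with each other, and the Col-0 arrays spread over more than 1 log2 unit, with replicate 1 lowest. Without that array the gene no longer met the criteria. AT4G37180, a MYB-like transcription factor gene, was higher by 0.79, 0.84 and 0.68 in OE1, OE2 and fls1-3. AT1G76580, of the SQUAMOSA promoter-binding protein-like family, was higher by 0.66, 0.87 and 1.29.

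AT3G28500 encodes an acidic protein of the large cytosolic ribosomal subunit, and AT1G11630 a pentatricopeptide repeat protein, a class known for binding organelle RNA. AT3G28500 gave 5.09, 6.79 and 6.12 in Col-0, 8.72, 7.05 and 7.22 in OE1, 6.83, 9.13 and 8.05 in OE2, and 8.60, 6.79 and 6.80 in fls1-3. This gene had the widest scatter in both overexpression lines among the named members, and its lowest line array matched its highest Col-0 array to 2 decimals. Its differences were 1.66, 2.01 and 1.40 in OE1, OE2 and fls1-3, and that of the mutant was 0.80 without fls1-3 replicate 1, where the gene left the members. AT1G11630 gave 6.69, 6.44 and 7.06 in Col-0, 7.97, 7.77 and 7.59 in OE1, 8.23, 7.60 and 8.30 in OE2, and 7.59, 7.26 and 7.39 in fls1-3. The mutant was its lowest line, with a difference of 0.68, against 1.05 in OE1 and 1.32 in OE2. AT2G03240, related to the phosphate exporter PHO1, gave 6.83, 6.98 and 7.14 in Col-0, 7.81, 7.64 and 7.63 in OE1, 7.97, 7.80 and 7.87 in OE2, and 8.91, 7.76 and 7.48 in fls1-3. The 3 arrays of the mutant spread widely, with replicate 1 above and replicate 3 below all arrays of the overexpression lines.

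The remaining named members have no role given here. AT1G69360 gave 7.84, 8.31 and 8.12 in Col-0, 8.72, 9.14 and 8.84 in OE1, 9.42, 9.04 and 9.02 in OE2, and 9.28, 9.35 and 9.82 in fls1-3. Its differences were 0.81, 1.07 and 1.39, and OE1 and OE2 overlapped. AT5G65300 gave 6.75, 6.47 and 6.42 in Col-0, 6.97, 7.59 and 7.24 in OE1, 7.47, 7.27 and 7.29 in OE2, and 8.77, 8.01 and 7.82 in fls1-3. All 3 fls1-3 arrays stood above both overexpression lines, which overlapped. AT1G52720 gave 9.26, 9.45 and 9.72 in Col-0, 10.31, 10.05 and 10.17 in OE1, 11.46, 11.12 and 10.98 in OE2, and 11.62, 11.63 and 11.72 in fls1-3. Its 4 groups did not overlap, in the order Col-0, OE1, OE2, fls1-3.

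**Figure D2:**
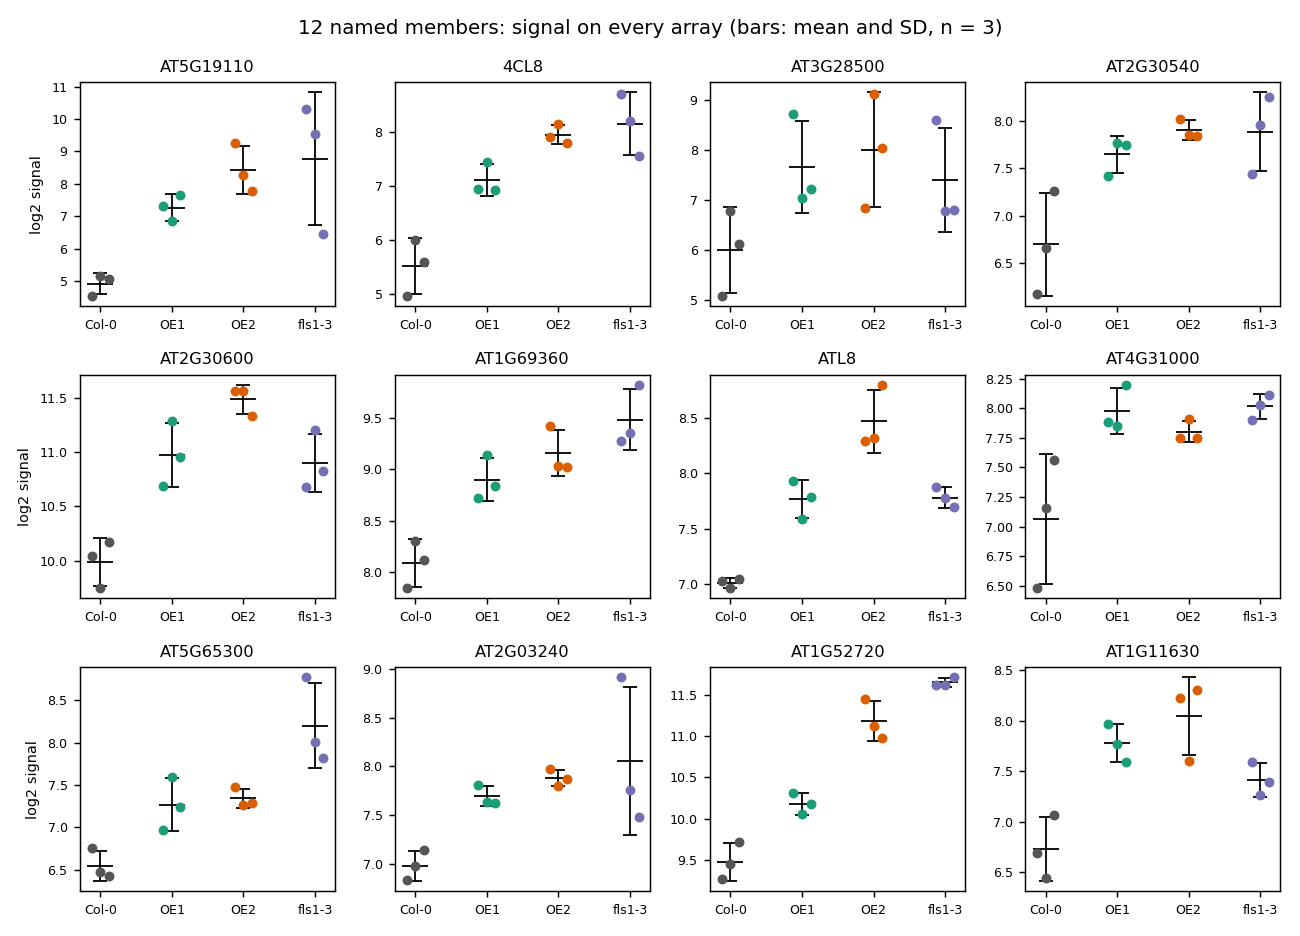
Log2 signal (vertical axis, scaled separately in each panel) on the 12 arrays for 12 named members, by group (horizontal axis). Points are single arrays, and bars are the mean and SD of 3 arrays. The 4 groups of AT1G52720 do not overlap, and AT5G19110 spreads from 6.46 to 10.32 in fls1-3.

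At the other end, AT5G25170 entered with a smallest difference of 0.61 and the unnamed probe set 263839_at with 0.62. Just outside lay AT1G10020 and the unnamed probe set 263870_at, which met all other criteria with smallest differences of 0.598 and 0.597. The gap between the lowest line array and the highest Col-0 array ranged from 0.0026 to 1.31 with a median of 0.29, and it was under 0.1 in 16 members. In gene order along the chromosomes, AT2G30540 and AT2G30600 lie closest together, with 6 protein-coding genes between them, and ATL8 and AT1G76580 are separated by 16.

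The 33 unnamed members reached larger differences than the named ones, with medians for OE1, OE2 and fls1-3 of 0.94, 1.61 and 1.62, against 0.77, 1.12 and 1.12 for the 20 that name 1 gene. Of those at least 1 log2 unit above Col-0 in every line, 14 were unnamed and 3 named 1 gene. The probe set 252265_at had the largest difference of all members. It gave 7.76, 6.90 and 7.27 in Col-0, 9.92, 8.60 and 10.80 in OE1, 12.43, 10.95 and 10.39 in OE2, and 9.93, 9.56 and 8.84 in fls1-3. That is 15.4-fold in OE2, 5.51-fold in OE1 and 4.39-fold in fls1-3. The probe set 252415_at gave 5.42, 8.49 and 9.10 in Col-0, 9.18, 10.33 and 10.08 in OE1, 11.36, 11.82 and 10.99 in OE2, and 10.63, 11.58 and 10.06 in fls1-3. Col-0 replicate 1 was far below the other wild-type arrays there. Without it, the differences fell from 2.19, 3.72 and 3.09 to 1.07, 2.59 and 1.96 in OE1, OE2 and fls1-3. The same array gave 3.09 for 263981_at against 6.62 and 7.45 on the other Col-0 arrays, and without it the differences of that probe set were 1.08, 1.88 and 1.11 in place of 2.40, 3.19 and 2.42. The 2 probe sets that name several genes are 246481_s_at, for KIN2 and KIN1, and 263216_s_at, for AT1G30730 and AT1G30720. They were higher by 0.73 to 1.05 in OE1, 1.2 to 1.79 in OE2 and 1.12 to 1.88 in fls1-3.

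The order of the lines was not part of the choice of members. OE1 was the lowest line in 39 of the 55 members (70.9%) and the highest in 1, the unnamed 248197_at. OE2 was the highest in 29 and fls1-3 in 25. Among the 11522 probe sets not named as plastid genes with all 3 line means at 7 or more, OE1 was the lowest line in 32.9% and the highest in 44.6%. The median over the members was -0.48 for OE1 minus OE2, 0.49 for fls1-3 minus OE1 and -0.03 for fls1-3 minus OE2, beside 0.02, -0.09 and -0.07 over the 11592 probe sets with line means at 7 or more. With each array centred on its median, OE1 was lowest in 46 members, and with quantile normalization in 40. The small difference between fls1-3 and OE2 changed sign under both scalings, to 0.08 and 0.003. All 3 OE1 arrays lay below all 3 OE2 arrays in 28 members (50.9%), which was the case for 8.87% of all probe sets, and below all 3 fls1-3 arrays in 21 members (38.2%), against 8.89% of all probe sets. The OE2 arrays lay wholly below those of fls1-3 in 8 members and wholly above in 9, against 5.63% and 6.96% of all probe sets. The shares over all probe sets include dimmer ones, with line means under 7, that could not be members. The criteria also set a least difference from Col-0 for each line and kept overlapping probe sets out, so these shares are given as a description. The spread within Col-0 was not small among the members, with a median SD of 0.34 against 0.29 over the 11592.

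The OE1 arrays also stood apart in a control of RNA quality. The 3' probe set of the GAPDH control was brighter than the 5' one by 2.1 to 2.44 log2 units on the OE1 arrays, against 1.19 to 1.40 in Col-0, 1.15 to 1.65 in OE2 and 0.86 to 1.64 in fls1-3. For the actin control, OE1, at 5.15 to 5.47, overlapped with Col-0, at 4.83 to 5.30. It lay above OE2, at 4.76 to 4.92, and fls1-3, at 4.63 to 5.08. For the ubiquitin control, OE1, at 1.86 to 2.44, overlapped with OE2, at 1.88 to 1.90. There it lay above Col-0, at 1.35 to 1.84, and fls1-3, at 1.30 to 1.45. The part of these differences in the lower member levels of OE1 was not tested.

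**Figure D3:**
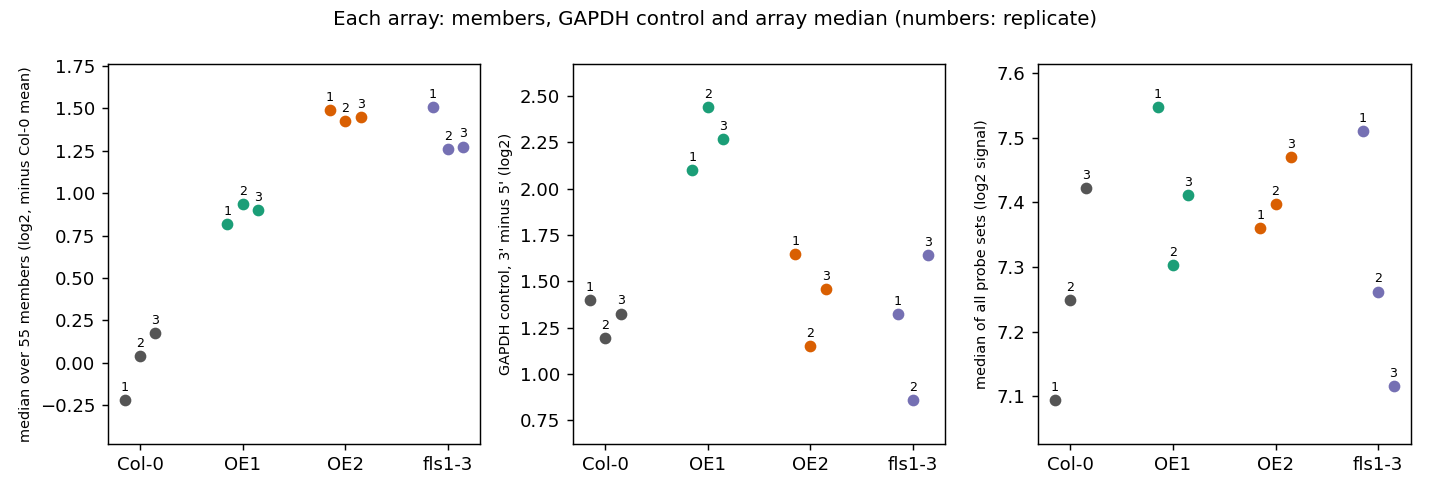
For each of the 12 arrays, the median over the 55 members of the signal minus the Col-0 mean (left), the 3' minus 5' difference of the GAPDH control (middle) and the median of all probe sets (right), all on the log2 scale. Points are arrays, numbered by replicate, and horizontal positions are groups. The members' medians run from 0.82 to 0.94 in OE1 and from 1.26 to 1.50 in fls1-3, and the GAPDH values of OE1 lie above those of all other groups.

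Differences between lines were tested over all 22746 probe sets with limma, and adjusted p-values are those of limma with Benjamini-Hochberg adjustment over all of them. Between OE1 and OE2, 2 of the 55 members passed, both lower in OE1, against 6 of all probe sets (0.0264%), 3 higher (0.0132%) and 3 lower (0.0132%). An unadjusted p under 0.05 was found for 22 members and 8.43% of all probe sets. Between fls1-3 and OE1, 5 members passed, all higher in fls1-3, against 126 of all probe sets (0.554%), of which 102 were higher (0.448%) and 24 lower (0.106%). The unadjusted count was 24 members, against 15.7% of all probe sets. Between fls1-3 and OE2, limma called no member and 5 of all probe sets (0.022%), 3 higher (0.0132%) and 2 lower (0.00879%) in fls1-3, while 15 members and 5.44% of all probe sets had an unadjusted p under 0.05.

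**Figure D4:**
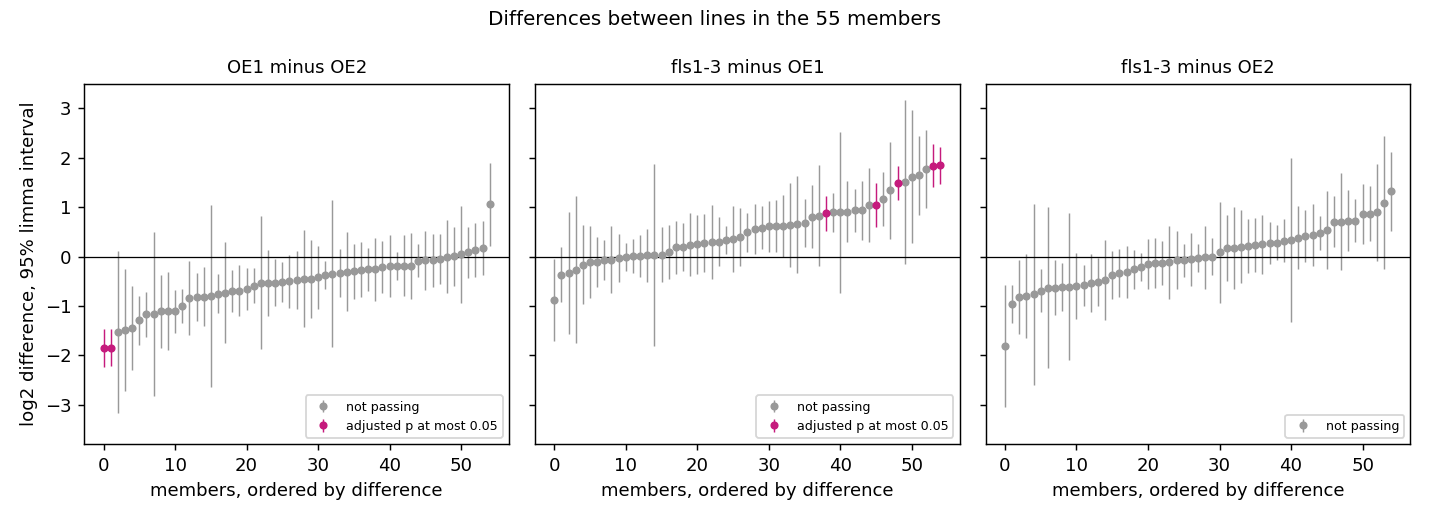
Log2 difference between 2 lines (vertical axis) for each of the 55 members, ordered by difference within each panel. Points are limma estimates with 95% intervals, and coloured points passed an adjusted p of 0.05. Panels show OE1 minus OE2 with 2 such members, fls1-3 minus OE1 with 5 and fls1-3 minus OE2 with 0.

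AT1G52720 was the 1 named gene that passed. It was higher in fls1-3 than in OE1 by 1.48 ± 0.16 log2 units (SE, n = 3 against 3, limma adjusted p = 0.00209), and all 3 fls1-3 arrays lay above all 3 OE1 arrays. The gene left the members without Col-0 replicate 1. OE1 lay below OE2 by 1.01 ± 0.16 (limma adjusted p = 0.0721), and fls1-3 was above OE2 by 0.47 with a 95% interval of 0.13 to 0.81 (limma adjusted p = 0.715). The unnamed 250777_at gave 7.29, 7.16 and 7.62 in Col-0, 8.17, 8.10 and 8.03 in OE1, 10.23, 9.88 and 9.72 in OE2, and 9.89, 9.98 and 9.95 in fls1-3. OE2 and fls1-3 overlapped far above OE1, which lay just above Col-0. OE1 was lower than OE2 by a log2 difference of -1.84 ± 0.17 (limma adjusted p = 0.00244), and fls1-3 was higher than OE1 by 1.84 ± 0.17 (limma adjusted p = 0.000727). Between fls1-3 and OE2 the difference was 0.00025, with a 95% interval of -0.37 to 0.37.

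The unnamed 267461_at gave 8.01, 8.01 and 7.42 in Col-0, 8.58, 8.44 and 8.74 in OE1, 10.23, 10.52 and 10.58 in OE2, and 9.43, 9.53 and 9.49 in fls1-3. Its 4 groups did not overlap, and here the mutant lay between the overexpression lines. OE1 minus OE2 was -1.85 ± 0.18 (limma adjusted p = 0.00244), whereas fls1-3 minus OE1 was 0.89 ± 0.18 (limma adjusted p = 0.0513) and fls1-3 minus OE2 was -0.96 ± 0.18 (limma adjusted p = 0.187). The unnamed 246222_at gave 6.97, 7.07 and 7.01 in Col-0, 7.60, 7.95 and 7.66 in OE1, 8.99, 8.82 and 8.73 in OE2, and 9.19, 9.59 and 9.94 in fls1-3. Its groups did not overlap either, in the same order as those of AT1G52720, and fls1-3 exceeded OE1 by 1.83 ± 0.20 (limma adjusted p = 0.00231).

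Adjusted p-values near the threshold were those of 256229_at and 251584_at, both unnamed. The first gave 10.28, 10.66 and 10.67 in Col-0, 11.11, 11.66 and 11.32 in OE1, 12.02, 11.92 and 11.92 in OE2, and 12.10, 12.26 and 12.35 in fls1-3, and fls1-3 exceeded OE1 by 0.87 ± 0.16 (limma adjusted p = 0.0386). The second gave 7.17, 7.64 and 7.89 in Col-0, 8.38, 7.95 and 8.29 in OE1, 9.40, 9.52 and 9.23 in OE2, and 9.10, 9.47 and 9.21 in fls1-3, a difference of 1.05 ± 0.21 between fls1-3 and OE1 (limma adjusted p = 0.0469). In both, OE1 lay wholly below OE2 and fls1-3. Over the alternatives tried, the differences ranged from 0.745 to 1.02 and from 0.908 to 1.17. Each lost the call without any single OE2 or fls1-3 array and without Col-0 replicate 2 or OE1 replicate 1 or 3. The call of 251584_at was also lost without OE1 replicate 2 and with a replicate block, and that of 256229_at with arrays centred on their medians. Both calls were also lost with only the groups compared in the fit and without the intensity trend. The limma adjusted p-values of 256229_at and 251584_at reached 0.174 and 0.165 over the alternatives tried.

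**Figure D5:**
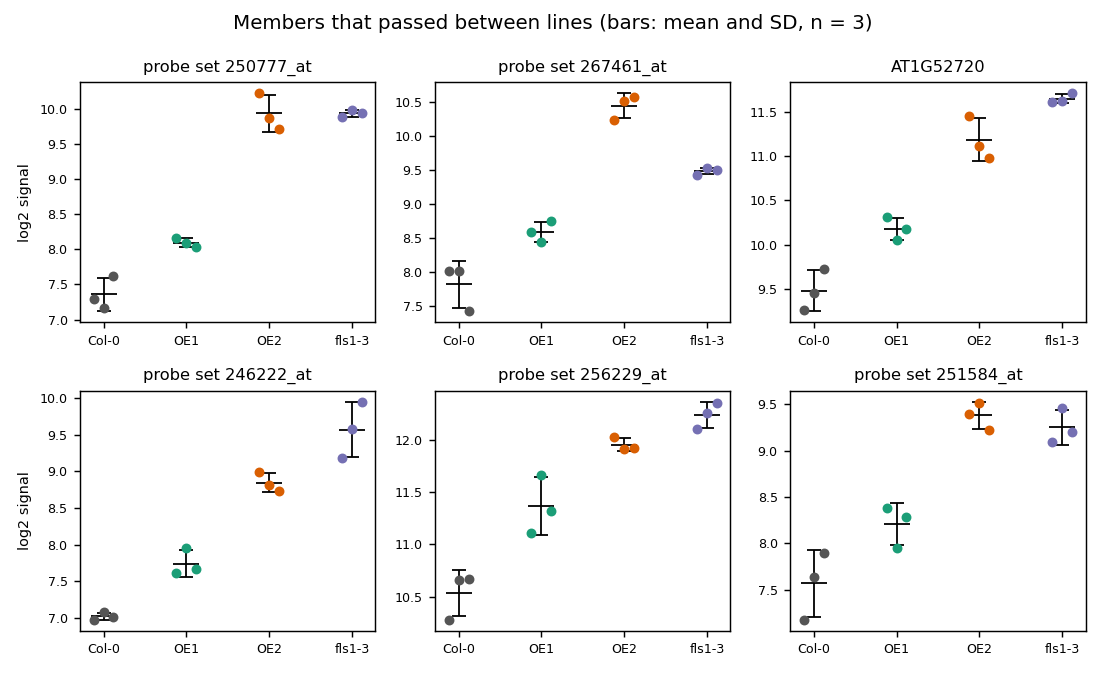
Log2 signal (vertical axis, scaled separately in each panel) on the 12 arrays for the 6 members that passed in a comparison between lines, by group (horizontal axis). Points are arrays, and bars are the mean and SD of 3 arrays. OE1 lies above Col-0 and below OE2 and fls1-3 in each panel.

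Other named members had differences with an unadjusted p under 0.05 that did not pass after adjustment. ATL8 had values of -0.70 ± 0.20 for OE1 minus OE2 (limma adjusted p = 0.279) and -0.69 ± 0.20 for fls1-3 minus OE2 (limma adjusted p = 0.541), and 0.01 for fls1-3 minus OE1, with a 95% interval of -0.41 to 0.44. The brighter probe set of AT2G30600 had -0.51 for OE1 minus OE2 and -0.59 for fls1-3 minus OE2, with intervals of -0.92 to -0.10 and -0.99 to -0.18. AT5G65300 had 0.93 for fls1-3 minus OE1, with an interval of 0.33 to 1.54, and 0.86 for fls1-3 minus OE2, with an interval of 0.25 to 1.46. 4CL8 had -0.84 for OE1 minus OE2 and 1.04 for fls1-3 minus OE1, with intervals of -1.585 to -0.10 and 0.30 to 1.78. HEMA2 had 0.62 for fls1-3 minus OE1 and 0.70 for fls1-3 minus OE2. A p-value above the threshold does not show that lines are equal.

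Replicates within a group moved the members partly together. Over the 12 arrays, the mean pairwise correlation of the members' deviations from their group means was 0.11, beside 0.01 over the 11592 probe sets with line means at 7 or more. This is a description over arrays that share their scaling. The criteria used these same arrays, with a cap on the highest Col-0 value, so the choice of members can itself shape such deviations. How much it does was not tested. In Col-0, 15, 29 and 44 of the 55 members lay above their Col-0 mean on replicates 1, 2 and 3. The medians of all probe sets on these arrays were 7.09, 7.25 and 7.42, in the same order, and the part of this in the members' Col-0 levels was not tested. Replicate 1 was the lowest Col-0 array for 37 members and replicate 3 the highest for 29. Without Col-0 replicate 3, 160 probe sets met the criteria, among them 51 of the 55, and without fls1-3 replicate 3, 85 did, among them 54. Fewer members stayed without Col-0 replicate 1, where 82 probe sets met them, among them 42 of the 55. With quantile normalization 40 did, among them 30 of the 55. With each array centred on its median, 31 probe sets met them, among them 23 of the 55. AT5G19110, 4CL8, AT2G30600, AT2G30540, AT1G69360, AT1G11630 and AT4G37180 stayed members there. Among the members lost were AT1G52720, ATL8, AT3G28500, AT4G31000, AT5G65300 and AT2G03240.

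Genes of 10 pathway lists gave a frame for the members. Of their 132 genes, 42 have a probe set naming them, and none of these 42 is a member. The 33 members that name no gene could not be compared with the lists, so other list genes may be among them. The 42 also do not cover the 2 members that name several genes. Among these is 246481_s_at, for KIN2 and KIN1, which was higher by 0.73, 1.2 and 1.12 in OE1, OE2 and fls1-3. The count of list genes therefore does not show that cold or dehydration genes are absent from the members. In the list of sugar starvation and dark induced genes, 9 of 30 were named, and 0 of 9 passed between any pair of lines. Of these, AT3G15450 and AT3G15630 met the numeric criteria and were left out by the rule. MCCA, for a subunit of the leucine-breakdown enzyme methylcrotonyl-CoA carboxylase, came close, with all 9 line arrays above Col-0 and differences of 0.54, 1.21 and 0.68 in OE1, OE2 and fls1-3. MCCB, for the other subunit, had differences of 0.46, 0.32 and 0.0053, and IVD, of the same breakdown route, -0.46, 0.30 and 0.13. PPDK, for pyruvate phosphate dikinase, had -0.82, -0.77 and -0.21, with means lower than Col-0 in all 3 lines. In the jasmonate list, 7 of 21 were named, and 6 of the 7 had means above Col-0 in each of the 3 lines. None of the 7 had all 9 line arrays above Col-0. JOX2, for an oxidase that inactivates jasmonic acid, was higher in fls1-3 than in OE1 by 1.55 ± 0.27 (limma adjusted p = 0.0282), and ORA47, a jasmonate-related regulator, had an OE1 minus OE2 difference of 3.20 ± 0.33 (limma adjusted p = 0.00244). Its means lay below Col-0 in all 3 lines, with differences of -1.82, -5.02 and -2.95. PRODH2, a proline dehydrogenase of proline breakdown and the 1 named gene of 6 in its list, was higher in fls1-3 than in OE1 by 3.08 ± 0.34 (limma adjusted p = 0.00250), but its OE1 mean of 7.39 lay below its Col-0 mean of 7.83. In the cold and dehydration list, 5 of 18 were named and COR47, a dehydrin, was higher in fls1-3 than in OE1 by 1.77 ± 0.21 (limma adjusted p = 0.00423), again with OE1 below Col-0. No named gene passed between lines in the autophagy list, where 10 of 10 were named, or in those for auxin, cell wall, clock, tau class glutathione transferases and flavonoids.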

How the data were processed

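Total RNA of 12 leaf samples, 4 genotypes with 3 samples each, was labelled with biotin and hybridised to 1 Affymetrix array per sample, from 6 µg of RNA per the labels' protocols. The deposited values are log2 signals. The submitters' processing notes name MAS5, with no version given in the sources used here. That they are log2 follows from the values: converted to the linear scale, every array has a 2% trimmed mean of 500.05, so the authors had scaled the arrays to a common level, which leaves array medians free, from 7.09 to 7.55. No further centring is known. Correlations between arrays ranged from 0.907 to 0.935 within groups and from 0.885 to 0.937 between them. The number of arrays limits precision.

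Members and gene lists were chosen with earlier results of these data known. Groups come from the sample titles. Probe sets were named through the platform annotation of 13513 single genes, 503 probe sets with several genes and 8730 unnamed, and locus names through TAIR10.1. No sequences were used. The values were used as deposited. Lines were compared with each other by limma 3.58.1 in R 4.3.3, over all 12 arrays with an intensity trend and a threshold of 0.05, and no test was made against Col-0. The fit was tested on simulated data.

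Values on every array are given for the 12 named members with the largest smallest difference and for members that passed between lines. Other named members have differences only. The 4 unnamed probe sets 252265_at, 252415_at, 263981_at and 248197_at were picked after their values were seen. The alternatives were other scalings, pseudocounts, filters, fits and thresholds, a replicate block, and leaving out each array.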

Additional observations from a re-analysis of the deposited data

Results flagged for a closer look

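These results were set aside because the response of a member differed between lines in the test of the difference itself. The unnamed probe set 250777_at was higher in fls1-3 than in OE1 by 1.84 log2 units, and its OE1 minus OE2 difference was -1.84. The unnamed 267461_at had an OE1 minus OE2 difference of -1.85. AT1G52720 was higher in fls1-3 than in OE1 by 1.48, the unnamed 246222_at by 1.83, 256229_at by 0.872 and 251584_at by 1.05. Each of these 7 differences had OE1 as the lower line. The 3' minus 5' difference of the GAPDH control, read from array control probe sets that were left out of the tests, averaged 2.27 in OE1. All OE1 arrays exceeded every Col-0 array in it.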

How the results depend on the processing

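The number of members was 55, and 31 with arrays centred on their medians, 35 with a pseudocount of 64, 109 and 18 with a minimum difference of 0.4 and 1.0, 34 with line means of at least 8, and from 52 to 160 without single arrays. The 160 came without Col-0 replicate 3. Quantile normalization gave 40, of which 30 were among the 55. Between OE1 and OE2, the count of probe sets called was 6, and 10 with quantile normalization (3 higher and 7 lower in OE1), 89 with only the groups compared (19 and 70), 532 with array quality weights (214 and 318), 13 with the replicate block (4 and 9) and from 4 to 19 without single arrays, the 19 without Col-0 replicate 1, which also gave the 5 members, and 11 without Col-0 replicate 3. Members among them were 2, and 7 with only the groups compared, 10 with array quality weights and 2 to 5 without single arrays. Between fls1-3 and OE1, the count was 126, and 48 with centred arrays (44 higher and 4 lower in fls1-3), 245 with the filter at the 40th percentile (172 and 73), 29 with only the groups compared, 20 without the intensity trend, 3783 with array quality weights (1647 and 2136) and from 17, without OE1 replicate 3, to 578, without Col-0 replicate 1 (364 and 214), which also gave the 10 members. Dropping Col-0 replicate 3 gave 199. Dropping replicate 1 or 2 of OE1 gave 39 or 62, dropping replicate 1, 2 or 3 of OE2 gave 76, 58 or 71, and dropping the same of fls1-3 gave 49, 42 or 46. Members among them were 5, and 9 with the filter, 3 with only the groups compared, 3 without the trend, 22 with array quality weights, all higher in fls1-3, and 3 to 10 without single arrays. Between fls1-3 and OE2, the count was 5, and 1 with only the groups compared (lower in fls1-3), 3 without the trend (1 higher and 2 lower), 117 with array quality weights (73 and 44), 3 with the replicate block (1 and 2) and from 3 to 11 without single arrays. The 11 came without OE2 replicate 1, and the 3 without Col-0 replicate 2, OE1 replicate 1 or 3, OE2 replicate 2 or 3 or fls1-3 replicate 1. Members among them were 0, and 3 with array quality weights. The titles do not say what arrays with the same replicate number share. Deviations of same-numbered arrays correlated above 0.1 in 5 of 18 pairs, with a range of -0.72 to 0.747. Those of differently numbered arrays did so in 15 of 36 pairs, with a range of -0.676 to 0.684. Whether arrays shared a batch was not tested. The replicate block gave 105 calls between fls1-3 and OE1, of which 6 were members, and it ended the call of 251584_at. The cause of these shifts was not tested. Of the 7 differences between lines that passed, 5 passed under all 23 alternatives, and the exceptions were 256229_at and 251584_at. Of 1173 recomputed differences of named or largest unnamed members from Col-0, 31 moved by more than 1 SD, 21 of them with a pseudocount and 10 with another scaling. Leaving out 1 of 3 arrays shifts a group mean by less than 1 SD of that group. The values without single arrays therefore could hardly count as moved, and their part of the 1173 does not show stability. For 263981_at, the OE1 difference fell from 2.40 to 1.08 without Col-0 replicate 1 and was not counted.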
